A study of Mus musculus with 8 samples.

Results

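The solute carrier genes expressed in the mouse left ventricle were taken as all genes whose symbol begins with Slc followed by a digit and whose brightest probe set had, in at least 2 of 8 arrays, a signal no lower than 121 (the arrays' overall median). Of 262 such genes with a probe set naming them alone, 156 met the rule and 106 did not; 8195 of all 12393 genes on the array passed the same filter. The members were chosen by their level in any arrays, and 100 of the 156 reached the limit in all 8 arrays while 12 reached it in just 2. There were 16 members that reached it in ligated arrays alone and 8 that reached it in C57BL/6 arrays alone, 17 members in all. For these the choice favoured a difference in that direction without fixing it. Slc25a15, kept through ligated arrays alone, still had a negative ligation difference (log2 -0.40). Just inside the limit lay Slc51a, whose second highest signal was 121.6, and Slc25a15 with 122.7. Just outside lay Slc26a5 with 119.8 and Slc25a2 with 114.5. The symbol rule also took in Slc9a3r1, Slc9a3r2 and Slc4a1ap, which are named after transporters but are not transporters themselves, and Slc3a2, the heavy chain that carries amino acid transporters to the membrane.

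Total RNA came from the left ventricles of male mice, 2 to 4 months old, of the MRL/MpJ strain, known for unusual healing of ear wounds, and of the common laboratory strain C57BL/6. A single array was hybridised for each of 8 groups, which were MRL/MpJ hearts 3, 30 and 60 days after LAD ligation, the tying off of the coronary artery called left anterior descending, untreated MRL/MpJ hearts, C57BL/6 hearts on the same 3 days after ligation, and untreated C57BL/6 hearts. The operation closes a main artery of the left ventricle and causes an infarct. The labels call the hearts without ligation untreated and name no sham operation, and leave unsaid whether RNA was pooled from several mice, so the p-values below measure the spread between these arrays alone.

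Solute carriers are membrane proteins that move sugars, amino acids, ions, metals, nucleotides and lipids across the plasma membrane and the membranes of organelles, mostly by facilitated diffusion or by coupling to a sodium, proton or other gradient. Heart muscle lives mainly on fatty acids, with lactate, glucose and ketone bodies beside them. It therefore relies on the insulin-responsive glucose transporter, on lactate and carnitine transporters, and on a dense set of mitochondrial inner membrane carriers, while sodium-calcium and anion exchangers serve each heartbeat.

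The 156 genes were placed in 9 classes named by substrate, following the Slc family number with a few genes placed singly. Members with another or unknown substrate stand with their family. Slc9a3r1, Slc9a3r2 and Slc4a1ap, which are not transporters, are thus counted among the ion transporters. Metal transporters and mitochondrial carriers had the highest shares kept, 24 of 27 and 28 of 34 genes on the array, followed by sugar transporters with 16 of 22. Transporters of nucleosides, nucleotide sugars and acetyl-CoA had 16 of 24 kept, those of vitamins and other solutes 12 of 20, and of monocarboxylates such as lactate 4 of 8. Fewer were kept among transporters of inorganic ions (20 of 42), of fatty acids and organic ions (15 of 33), and of amino acids, peptides, taurine and creatine (21 of 52).

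All 10 cardiomyocyte markers listed were above the limit, with summed signals of 194128.1 to 384085.0 in ligated ventricles and of 204801.8 to 225940.4 in untreated ones. Markers of cells that gather in an infarct summed higher after ligation. The 9 fibroblast markers summed to between 25392.0 and 60071.7 in ligated ventricles and to between 10046.9 and 10245.2 in untreated ones, and the 10 macrophage markers to between 8499.3 and 11905.0 against 4439.6 to 6533.4, with no marker of either list at 0. Atrial markers (4 of 4 kept) summed to between 9871.4 and 52358.8 in ligated ventricles and to between 4631.9 and 7306.8 in untreated ones. Of 4 adipocyte markers on the array 2 were kept, and the list summed to between 334.5 and 1413.2 in ligated ventricles and to between 283.3 and 299.0 in untreated ones, while Lep and Cidec stayed below the limit in every array. The endothelial markers (7 of 7 kept) summed to between 3426.0 and 4090.3 in ligated ventricles and to between 4139.2 and 4851.2 in untreated ones. What part these shifts have in the differences below was not tested, and in tissue RNA fewer cells of a type and less RNA per cell cannot be told apart. The C57BL/6 day 30 array stood apart from the others: its log2 signals over the 8195 genes kept by the filter correlated with those of the other arrays at 0.844 to 0.877, against 0.884 to 0.948 between the other pairs. In it the dimmer 78 of the 156 members (mean signal under 238.8) had a median log2 difference of 0.33 from untreated C57BL/6, 58 of them above 0. The 3797 dimmer genes among all those kept by the filter had one of 0.26.

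Differences are given as log2 of the signal plus an offset of 28.6, which compresses differences between low signals. Tests were made with limma on all 8 arrays, with strain and time point as terms and Benjamini-Hochberg adjusted p-values over all 8195 genes, and an adjusted p under 0.05 counted as a call. No member was called for ligated against untreated ventricles, where 0.195% of all genes were called, nor for the strain difference, where 0.22% were. The same held on day 3 (0 of 156, all genes 0.0%), day 30 (0 of 156, all genes 0.0122%) and day 60 (0 of 156, all genes 0.0366%), for days 30 and 60 against day 3 (0 of 156, all genes 0.0%) and for the interaction of strain and ligation (0 of 156, all genes 0.0%). At an unadjusted p under 0.05, 10 members (6.41%) differed between ligated and untreated ventricles, beside 10.4% of all genes. The counts were 6 members (3.85%) on day 3 beside 6.53% of all genes, 11 (7.05%) on day 30 beside 11.0%, and 14 (8.97%) on day 60 beside 10.6%. Between days 30 and 60 and day 3 there were 6 (3.85%) beside 5.54%. Each of these shares lay below that of all genes, and whether the solute carriers differed from all genes in this was not tested.

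Classes differed little in the middle of their distributions. Over the 6 ligated arrays against the 2 untreated ones, the median log2 difference was 0.08 for sugar transporters (10 of 16 above 0), 0.13 for amino acid transporters (14 of 21), -0.08 for ion transporters (7 of 20) and -0.10 for mitochondrial carriers (9 of 28), against -0.03 for all genes tested, of which 46.8% lay above 0. The other classes had medians of -0.03 (metals), 0.05 (monocarboxylates), -0.04 (fatty acids and organic ions), 0.08 (nucleosides and nucleotide sugars) and 0.10 (vitamins and other). Without single arrays the mitochondrial median lay between -0.17 and -0.05. These medians are descriptions with no test.

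**Figure D1:**
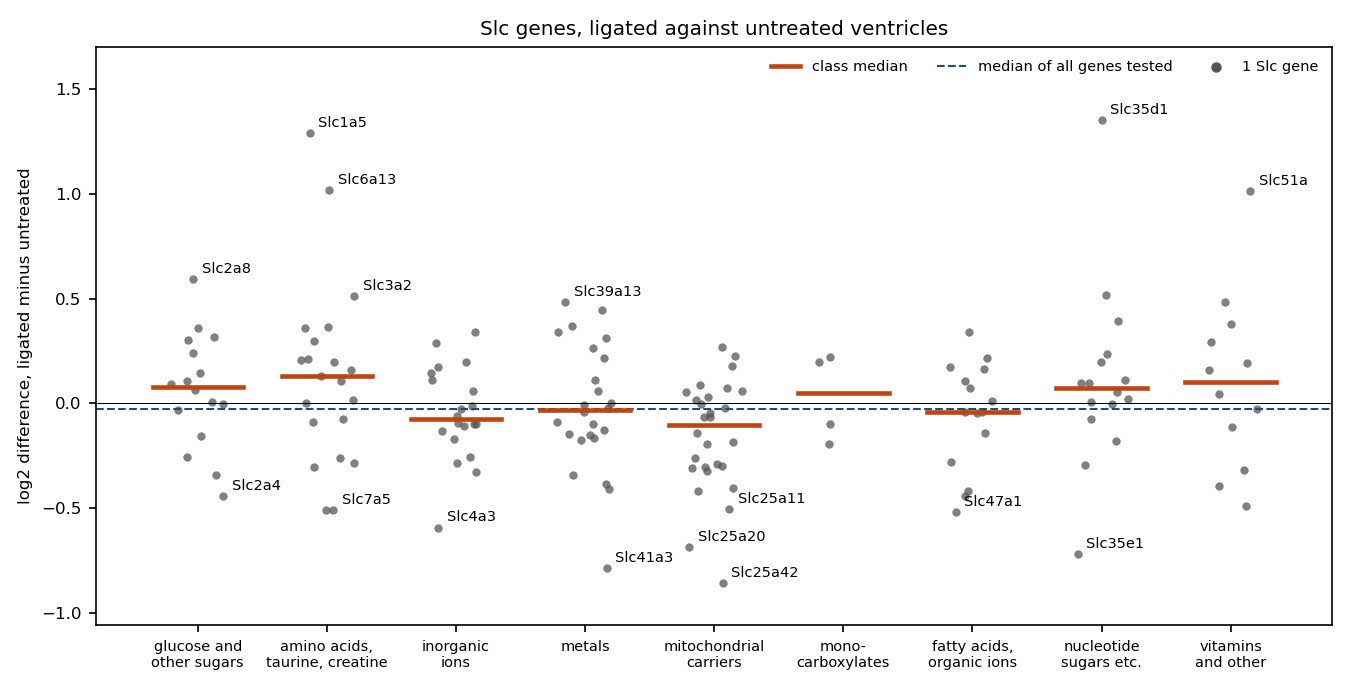
Log2 difference of ligated minus untreated ventricles (vertical axis, additive fit over 8 arrays) for each of the 156 Slc genes (points) in 9 substrate classes (horizontal axis). Short orange lines are class medians, all between -0.10 and 0.13, the dashed line is the median of all genes tested at -0.03, and named points such as Slc35d1 at 1.35 and Slc25a42 at -0.86 lie far from it, although none passed the test.

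Followed by day and strain, most class medians on day 30 lay on opposite sides of 0 in the 2 strains, and so did the medians of all 156 members (-0.09 in MRL/MpJ, 0.25 in C57BL/6) and of all genes (-0.06 and 0.06). The difference between the strains in these medians was not tested. Sugar transporters stood at a median of 0.21, -0.23 and -0.27 in MRL/MpJ ventricles on days 3, 30 and 60 against the untreated MRL/MpJ array, and at 0.24, 0.68 and 0.02 in C57BL/6 against theirs. Ion transporters stood at -0.07, -0.31 and -0.46 in MRL/MpJ and at 0.18, 0.38 and -0.01 in C57BL/6. Amino acid transporters stood at -0.09 in MRL/MpJ and 0.28 in C57BL/6 on day 30. Mitochondrial carriers stood at -0.04, 0.01 and -0.20 in MRL/MpJ and at -0.05, -0.05 and -0.22 in C57BL/6. Day 60 was the low point of this class in both strains, as it was for the sugar and ion transporters, for all 156 members (-0.14 in MRL/MpJ, -0.13 in C57BL/6) and for all genes (-0.07 and -0.05). The C57BL/6 day 30 values come from the array that stood apart. With 1 array a group these medians carry no error.

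**Figure D2:**
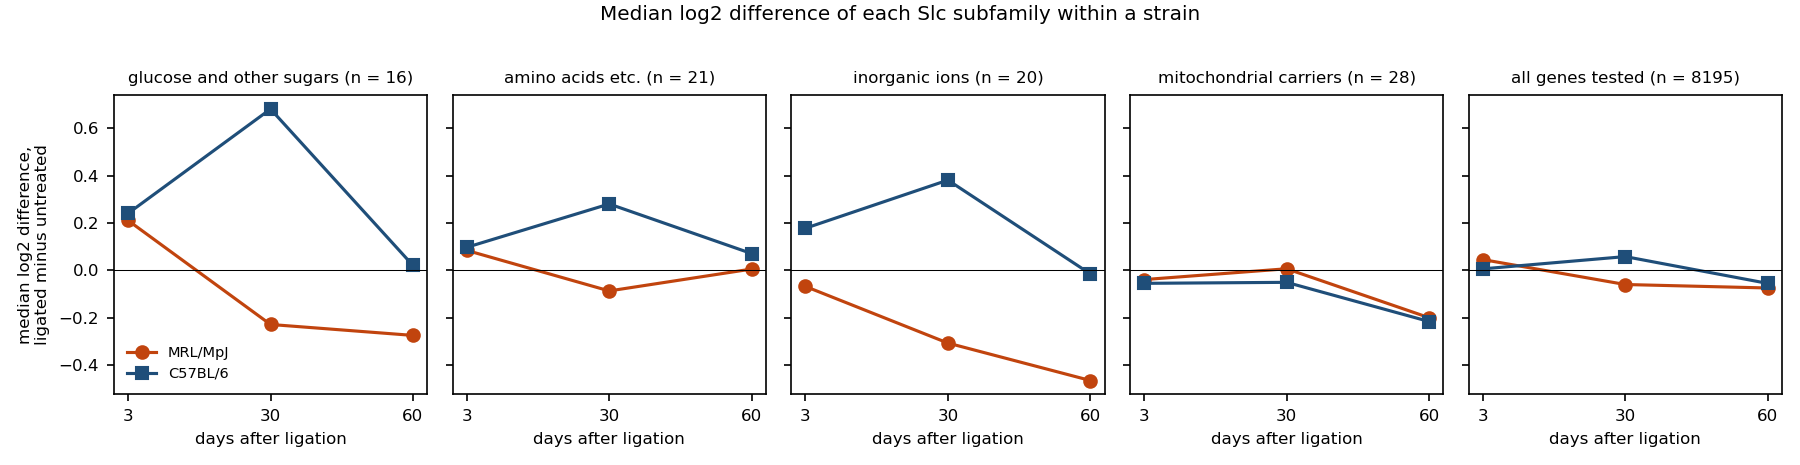
Median log2 difference from the untreated array of the same strain (vertical axis) on days 3, 30 and 60 after ligation (horizontal axis, evenly spaced) for 4 Slc classes and for all genes tested, with MRL/MpJ as orange circles and C57BL/6 as blue squares. Sugar transporters reach 0.68 in C57BL/6 on day 30 and -0.23 in MRL/MpJ, while mitochondrial carriers of both strains are lowest on day 60, at -0.20 and -0.22, the day on which all genes are lowest too, at -0.07 and -0.05.

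By single arrays, 58 members (37.2%) had lower signals in both day 60 ventricles than in both untreated ones, beside 29.9% of all genes, and 24 (15.4%) had higher ones, beside 20.7%. On day 30 the counts were 16 lower (10.3%, all genes 20.7%) and 31 higher (19.9%, all genes 18.6%), and on day 3 they were 20 lower (12.8%, all genes 17.6%) and 34 higher (21.8%, all genes 21.8%). Over all 6 ligated arrays, 9 members lay below both untreated arrays (5.77%, all genes 7.11%): Slc25a11, Slc25a13, Slc25a36, Slc25a42, Slc27a1, Slc35e1, Slc38a2, Slc47a1 and Slc4a3. Slc20a1, Slc35d1, Slc39a7, Slc3a2 and Slc51a lay above both (5 members, 3.21%, all genes 6.71%).

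The promoter windows of the 2 transporters with the largest negative ligation differences, Slc25a42 and Slc41a3, and of 2 with large positive ones, Slc35d1 and Slc51a, are shown from RefSeq (GRCm38.p6), 250 bases before to 50 after the start site, 5′ to 3′ on the gene's strand. Capitals mark the E-box CACGTG, the sequence bound by Myc, USF and MiT factors, which reads the same on both strands. The windows lie at chr8:70212232-70212531 on the minus strand (Slc25a42), chr6:90618996-90619295 on the plus strand (Slc41a3), chr4:103215127-103215426 on the minus strand (Slc35d1) and chr16:32487830-32488129 on the minus strand (Slc51a).
Slc25a42: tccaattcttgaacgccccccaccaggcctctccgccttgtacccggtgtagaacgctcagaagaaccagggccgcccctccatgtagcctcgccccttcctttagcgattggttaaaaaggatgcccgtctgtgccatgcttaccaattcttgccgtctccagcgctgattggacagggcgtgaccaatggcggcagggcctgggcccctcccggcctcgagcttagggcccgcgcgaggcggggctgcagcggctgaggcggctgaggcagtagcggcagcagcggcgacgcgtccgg
Slc41a3: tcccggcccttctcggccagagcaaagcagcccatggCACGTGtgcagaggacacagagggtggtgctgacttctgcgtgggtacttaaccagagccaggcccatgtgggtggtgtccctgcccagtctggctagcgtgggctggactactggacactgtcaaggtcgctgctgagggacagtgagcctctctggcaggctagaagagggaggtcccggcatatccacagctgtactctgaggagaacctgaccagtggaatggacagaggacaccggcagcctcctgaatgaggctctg
Slc35d1: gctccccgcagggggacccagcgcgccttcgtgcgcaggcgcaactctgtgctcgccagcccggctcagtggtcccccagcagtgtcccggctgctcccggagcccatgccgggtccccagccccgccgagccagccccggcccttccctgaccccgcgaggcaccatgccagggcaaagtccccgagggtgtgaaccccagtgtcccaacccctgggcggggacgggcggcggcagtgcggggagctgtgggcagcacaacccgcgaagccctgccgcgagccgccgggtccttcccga
Slc51a: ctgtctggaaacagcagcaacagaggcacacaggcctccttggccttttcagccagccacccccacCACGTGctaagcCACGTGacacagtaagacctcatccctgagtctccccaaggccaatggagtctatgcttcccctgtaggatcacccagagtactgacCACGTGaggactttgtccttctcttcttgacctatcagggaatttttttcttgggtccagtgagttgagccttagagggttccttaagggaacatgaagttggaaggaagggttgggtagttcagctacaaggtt
The Slc51a window held 3 E-boxes, at bases 67, 79 and 166 of the window, and the Slc41a3 window held 1, at base 38. The other two windows held none. An E-box was found in 19 of 166 windows of 119 members with a window (11.4%), in 18 genes, and in 7.15% of all 32851 windows. The core of the C/EBP-ATF response element, TGATGNAA, read on both strands, was found in 1.81% of member windows (Slc50a1 and Slc7a7) and 3.97% of all windows, and the ERR element TGACCTTGA, also on both strands, in 0 of 166 and in 0.423%. A match is a run of letters and does not show that a factor binds there.

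Among sugar transporters, the insulin-responsive glucose transporter of muscle and the basal one lay on opposite sides of their untreated arrays. Slc2a4, which encodes GLUT4, had signals of 1513.7, 2000.8 and 1309.8 in MRL/MpJ ventricles on days 3, 30 and 60 and of 2151.1 in the untreated MRL/MpJ ventricle. In C57BL/6 they were 2389.6, 1599.3 and 1922.0 after ligation and 2671.5 untreated. All 6 ligated arrays lay below the untreated array of their strain, with a log2 difference of -0.44 (SE 0.24, limma adjusted p = 0.569). Slc2a1, which encodes GLUT1, had 310.1, 317.0 and 255.8 in ligated and 244.4 in untreated MRL/MpJ ventricles, and 196.8, 258.5 and 224.4 in ligated and 153.3 in untreated C57BL/6 ventricles. It was higher in 6 of 6 ligated arrays than in the untreated array of the strain (log2 0.36, SE 0.20, limma adjusted p = 0.572) and higher in MRL/MpJ at all 4 time points (log2 0.40, SE 0.17, limma adjusted p = 0.62). None of these differences passed the test, and the ligation difference of Slc2a1 was 0.24 without the untreated C57BL/6 array. Its other probe sets gave 0.25 and 0.58 for ligation. In both of them the MRL/MpJ day 3 value (87.8 and 163.8) lay below the untreated MRL/MpJ one (149.2 and 169.8).

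Slc2a8, an intracellular glucose transporter, stood at 202.1, 113.6 and 187.8 in ligated and 95.0 in untreated MRL/MpJ ventricles, and at 238.2, 366.9 and 182.8 in ligated and 163.8 in untreated C57BL/6 ventricles. It had the largest positive ligation difference of the class (log2 0.59, SE 0.30, limma adjusted p = 0.54), and 0.39 without the C57BL/6 day 30 array. Slc2a3, a high-affinity glucose transporter best known from neurons and leukocytes, ranged from 71.1 to 127.1 in ligated MRL/MpJ and 109.3 in untreated MRL/MpJ, and from 120.6 to 172.9 in ligated C57BL/6 and 147.5 in untreated C57BL/6. The ligated and untreated values of Slc2a3 overlapped in both strains. Slc45a3, a sugar transporter relative, was higher on day 3, with 276.2 and 283.3 in MRL/MpJ and C57BL/6 ventricles, than in untreated ones with 171.5 and 149.3 (log2 0.71, SE 0.28, limma adjusted p = 0.745).

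Amino acid transporters held 3 of the 5 members with an unadjusted p under 0.05 and a higher level after ligation. Of the 156 members 3.21% had such a difference, beside 6.27% of all genes. The 3 were Slc1a5, Slc6a13 and the heavy chain Slc3a2. Of the 5, Slc6a13, Slc35d1 and Slc51a reached the limit in ligated arrays alone, so their choice favoured this direction. Whether the class held more than its share was not tested. Slc1a5, a sodium-dependent exchanger of glutamine and other neutral amino acids, had signals of 234.5, 237.4 and 350.7 in ligated MRL/MpJ ventricles and 39.2 in the untreated one. In C57BL/6 it had 156.8, 252.0 and 288.2 after ligation and 158.7 untreated. The ligation difference was 1.29 (SE 0.37, limma adjusted p = 0.271), and it rested largely on the low untreated MRL/MpJ value: within MRL/MpJ it was 2.14, within C57BL/6 0.44, and without the untreated MRL/MpJ array it was 0.44. On day 60 both strains stood above their untreated arrays by a fitted log2 of 1.62 (SE 0.45, limma adjusted p = 0.264), and 0.77 without the untreated MRL/MpJ array.

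Slc3a2, the heavy chain that anchors the LAT family of amino acid exchangers, showed a smaller difference, positive in both strains. Its signals were 511.1, 700.5 and 730.4 in ligated MRL/MpJ ventricles against 378.9 untreated, and 494.4, 675.2 and 562.2 in ligated C57BL/6 ventricles against 456.9 untreated. All 6 ligated arrays lay above both untreated ones (log2 0.51, SE 0.20, limma adjusted p = 0.442; 0.31 without the untreated MRL/MpJ array), and the difference was 0.69 on day 30 (SE 0.25, limma adjusted p = 0.393). Slc7a5 (LAT1), a light chain of Slc3a2 that carries large neutral amino acids, did not share the direction: it had 104.7, 132.2 and 119.2 in ligated and 148.3 in untreated MRL/MpJ ventricles, and 48.2, 43.2 and 128.7 in ligated and 132.0 in untreated C57BL/6 ventricles (log2 -0.51, SE 0.28, limma adjusted p = 0.569; -0.27 without the untreated C57BL/6 array). Slc7a6 and Slc7a7, also light chains of Slc3a2, had small positive ligation differences (log2 0.16 and 0.21).

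Slc6a13, a sodium-dependent transporter of GABA and taurine, was one of the dimmer members. It reached the limit in ligated arrays alone, so that a higher level after ligation was built into its choice. It read 168.2, 162.5 and 111.5 in ligated and 78.2 in untreated MRL/MpJ ventricles, and 174.9, 203.4 and 47.1 in ligated and 32.2 in untreated C57BL/6 ventricles. The largest differences were on day 30 (log2 1.39, SE 0.34, limma adjusted p = 0.244) and day 3 (log2 1.31, SE 0.34, limma adjusted p = 0.433). Slc38a3, a glutamine transporter coupled to sodium and protons, lay on the other side. In MRL/MpJ it read 574.6, 459.9 and 305.9 after ligation and 624.7 untreated, and in C57BL/6 695.7, 663.3 and 448.2 after ligation and 860.3 untreated. It was lower on each later day in both strains and furthest down on day 60 (log2 -0.93, SE 0.23, limma adjusted p = 0.205), and it was lower in MRL/MpJ at all 4 time points (log2 -0.43, SE 0.16, limma adjusted p = 0.541).

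Taurine and creatine are held at high concentrations in heart muscle. The taurine transporter Slc6a6 had 496.6, 535.6 and 783.8 in ligated and 390.9 in untreated MRL/MpJ ventricles, and 293.0, 378.6 and 608.3 in ligated and 453.7 in untreated C57BL/6 ventricles. Both day 60 arrays stood above both untreated ones (log2 0.68, SE 0.28, limma adjusted p = 0.461), and without the untreated MRL/MpJ array the difference was 0.32. The creatine transporter Slc6a8 had 1271.1, 2042.8 and 1266.4 in ligated and 1965.1 in untreated MRL/MpJ ventricles, and 1304.9, 1451.1 and 1531.9 in ligated and 1613.6 in untreated C57BL/6 ventricles. It was lower in 5 of 6 ligated arrays than in the untreated array of the strain, by a log2 of -0.28 (SE 0.22, limma adjusted p = 0.691), and by -0.17 without the untreated MRL/MpJ array. The other probe set of Slc6a8 was lower in all 6, by a log2 of -0.53.

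**Figure D3:**
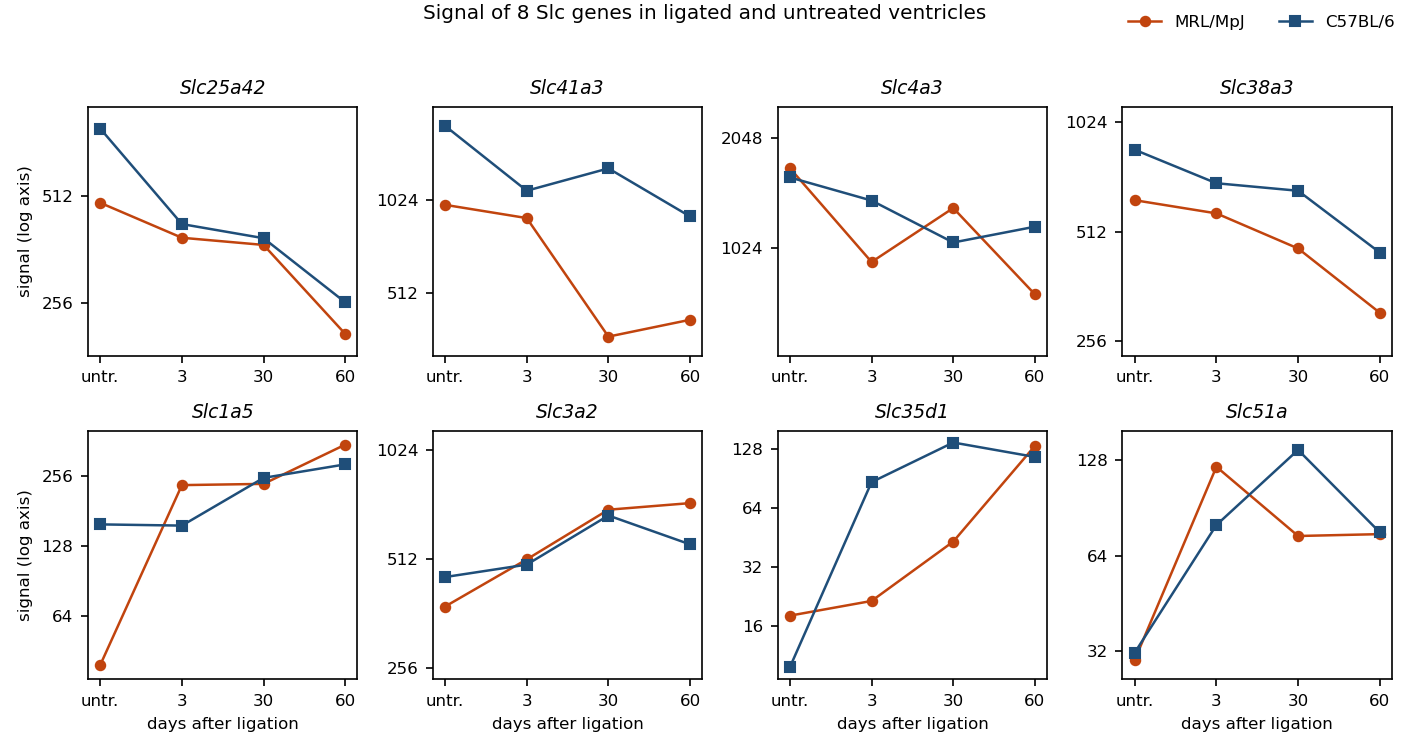
Signal on a log axis (vertical, each panel with its own range) in untreated ventricles (untr.) and 3, 30 and 60 days after ligation (horizontal, evenly spaced) for 8 Slc genes, with MRL/MpJ as orange circles and C57BL/6 as blue squares, 1 array a point. Slc25a42 and Slc38a3 are lowest on day 60 in both strains, at 209.0 and 256.5 and at 305.9 and 448.2, while Slc3a2 lies above its untreated arrays at every ligated point.

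Ion transporters had a median ligation difference of -0.08 over both strains, while medians within a strain reached -0.46 in MRL/MpJ on day 60 and 0.38 in C57BL/6 on day 30. The largest ligation difference of the class was that of the anion exchanger AE3. Slc4a3, which encodes this chloride-bicarbonate exchanger of cardiomyocytes, had 934.3, 1315.9 and 760.9 in ligated and 1694.7 in untreated MRL/MpJ ventricles, and 1379.8, 1057.4 and 1168.8 in ligated and 1597.9 in untreated C57BL/6 ventricles. No ligated value reached either untreated one (log2 -0.59, SE 0.24, limma adjusted p = 0.459), and the day 60 difference was -0.78 (SE 0.30, limma adjusted p = 0.431) and -0.51 without the MRL/MpJ day 60 array. Slc12a7, a potassium-chloride cotransporter, had 1380.8, 1619.7 and 1175.1 in ligated and 1800.2 in untreated MRL/MpJ ventricles, and 1382.5, 1157.6 and 1228.7 in ligated and 1521.4 in untreated C57BL/6 ventricles (log2 -0.33, SE 0.20, limma adjusted p = 0.619). The other probe set of Slc12a7 gave -0.60, with no ligated value reaching either untreated one. Slc20a1, a sodium-phosphate cotransporter, ranged from 254.2 to 355.2 in ligated MRL/MpJ, against 240.8 untreated, and from 272.1 to 315.0 in ligated C57BL/6, against 220.0 untreated (log2 0.34, SE 0.19, limma adjusted p = 0.57).

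Slc8a1, the sodium-calcium exchanger that extrudes calcium after each beat, gave no steady picture. It had 175.7, 542.3 and 400.3 in ligated and 262.0 in untreated MRL/MpJ ventricles, and 287.1, 119.5 and 420.9 in ligated and 245.7 in untreated C57BL/6 ventricles. In this brightest probe set both day 60 arrays were above both untreated ones. Its day 30 arrays were the highest and the lowest of the 8. The ligation difference was 0.18 (SE 0.44, limma adjusted p = 0.916), and -0.17 when all probe sets of Slc8a1 were averaged. A dimmer probe set went the other way, at 115.8, 84.0 and 48.5 in ligated and 162.8 in untreated MRL/MpJ ventricles. In C57BL/6 it read 75.6, 75.6 and 45.8 after ligation and 152.1 untreated. Every ligated value of that probe set lay below both untreated ones (log2 -0.89, and -1.30 on day 60). The dimmest probe set, below the limit in every array, gave 0.22 for ligation.

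Among metal transporters, Slc41a3, of the magnesium transporter family, had 893.2, 371.5 and 420.8 in ligated and 985.1 in untreated MRL/MpJ ventricles, and 1093.6, 1290.2 and 903.8 in ligated and 1767.0 in untreated C57BL/6 ventricles. It was lower in all 6 ligated arrays than in the untreated array of the strain (log2 -0.79, SE 0.28, limma adjusted p = 0.386; day 60 -1.06, SE 0.34, limma adjusted p = 0.346) and lower in MRL/MpJ at all 4 time points (log2 -0.97, SE 0.24, limma adjusted p = 0.294). The strain difference was seen with this probe set alone: the other probe sets of Slc41a3 gave 0.15 and 0.03. Slc41a1, a plasma membrane magnesium transporter, was also lower in MRL/MpJ, with 462.6, 412.5, 338.3 and, untreated, 491.9, against 757.3, 661.5, 472.0 and, untreated, 607.2 in C57BL/6 (log2 -0.52, SE 0.17, limma adjusted p = 0.456).

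The zinc transporters spread in both directions. Slc39a13, which supplies zinc from intracellular stores and is needed for connective tissue, read 289.2, 266.8 and 234.3 in ligated and 145.7 in untreated MRL/MpJ ventricles, and 319.5, 507.4 and 247.6 in ligated and 289.9 in untreated C57BL/6 ventricles (log2 0.48, SE 0.24, limma adjusted p = 0.538). Without the untreated MRL/MpJ array the value was 0.22. Slc30a3, a vesicular zinc transporter, was highest on day 3, at 575.8 in MRL/MpJ and 550.7 in C57BL/6, beside 344.4 and 278.5 in the untreated ventricles of the same strains (log2 0.81, SE 0.29, limma adjusted p = 0.698). It was lower on days 30 and 60 than on day 3, at 273.2 and 326.3 in MRL/MpJ and 457.1 and 356.0 in C57BL/6 (log2 -0.65, SE 0.25, limma adjusted p = 0.873).

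Slc40a1, the iron exporter ferroportin, ranged from 227.5 to 435.6 in ligated MRL/MpJ ventricles, against 476.4 untreated, and from 230.1 to 450.3 in ligated C57BL/6 ventricles, against 358.8 untreated (log2 -0.41, SE 0.31, limma adjusted p = 0.687). The value was -0.18 without the MRL/MpJ day 30 array and -0.22 without the untreated MRL/MpJ array. Slc11a1, a metal transporter of macrophage phagosomes, ranged from 255.3 to 401.3 in ligated MRL/MpJ, against 243.8 untreated, and from 239.7 to 378.8 in ligated C57BL/6, against 216.7 untreated. All 6 ligated arrays were above the untreated one of their strain, beside the macrophage marker sums given above, and the part of those cells in Slc11a1 was not tested.

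Mitochondrial carriers held the member with the smallest p for ligation. Slc25a42, the coenzyme A carrier of the inner membrane, had 389.7, 372.0 and 209.0 in MRL/MpJ ventricles on days 3, 30 and 60 and 488.7 in the untreated one. In C57BL/6 it had 425.8, 388.6 and 256.5 after ligation and 790.5 untreated. No ligated array reached either untreated one, and both strains were lowest on day 60. The ligation difference was -0.86 (SE 0.21, limma adjusted p = 0.174) and the day 60 difference -1.32 (SE 0.25, limma adjusted p = 0.121). With an intensity trend in limma's prior the day 60 difference passed the threshold (adjusted p = 0.0334), as it did in only 1 of 16 alternative settings. Over those settings the ligation difference ranged from -1.12 to -0.60.

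The 2 carriers of the malate-aspartate shuttle, which brings reducing equivalents into mitochondria, both lay below their untreated arrays. Slc25a11, the oxoglutarate-malate carrier, read 2793.9, 3502.9 and 2679.7 in ligated and 4555.0 in untreated MRL/MpJ ventricles, and 3800.3, 2795.6 and 3241.9 in ligated and 4296.9 in untreated C57BL/6 ventricles (log2 -0.50, SE 0.22, limma adjusted p = 0.479). Slc25a13, an aspartate-glutamate carrier, read 622.9, 603.5 and 743.8 in ligated and 970.2 in untreated MRL/MpJ ventricles, and 894.9, 663.1 and 720.5 in ligated and 922.9 in untreated C57BL/6 ventricles (log2 -0.42, SE 0.20, limma adjusted p = 0.533). For both genes the groups did not overlap, while neither difference passed the test. Slc25a12, the other aspartate-glutamate carrier, had no probe set naming it alone.

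Slc25a20, the carnitine-acylcarnitine carrier that admits long-chain fatty acids to the matrix, alternated between arrays. It stood at 495.5 in MRL/MpJ on day 3, 1314.5 on day 30 and 521.9 on day 60, with 1188.6 untreated, and at 1353.6, 510.8 and 1285.2 in C57BL/6 on the same days, with 1508.1 untreated. The 3 low arrays were thus MRL/MpJ days 3 and 60 and C57BL/6 day 30, and the lower strain alternated from one ligated day to the next. Its second probe set read 405.3, 549.3 and 359.0 in ligated and 879.0 in untreated MRL/MpJ ventricles, and 598.4, 558.1 and 600.3 in ligated and 883.7 in untreated C57BL/6 ventricles, so that all 6 ligated values were below both untreated ones there. The ligation difference of the brighter probe set was -0.68 (SE 0.49, limma adjusted p = 0.663), and -0.30 without the C57BL/6 day 30 array.

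The carriers that serve ATP synthesis had ligation differences about as large as their standard errors or smaller. Slc25a4, the adenine nucleotide translocator of heart and muscle, read 18492.7, 19957.6 and 14820.5 in ligated and 18544.4 in untreated MRL/MpJ ventricles, and 18319.1, 29441.1 and 21836.8 in ligated and 19479.1 in untreated C57BL/6 ventricles (log2 0.07, SE 0.21, limma adjusted p = 0.925; -0.06 after quantile normalization). Slc25a3, the phosphate carrier, read 18939.0, 16729.6 and 13955.6 in ligated and 19103.2 in untreated MRL/MpJ ventricles, and 20533.9, 21380.3 and 17578.7 in ligated and 16303.5 in untreated C57BL/6 ventricles (log2 0.03, SE 0.21, limma adjusted p = 0.974; -0.10 after quantile normalization). Ligated MRL/MpJ values of Slc25a3 lay below and ligated C57BL/6 values above their untreated arrays. Slc25a5, a second adenine nucleotide translocator, read 3513.1, 5028.0 and 3751.4 in ligated and 4573.4 in untreated MRL/MpJ ventricles, and 4317.3, 2441.7 and 3401.9 in ligated and 4448.6 in untreated C57BL/6 ventricles (log2 -0.30, SE 0.27, limma adjusted p = 0.741; -0.12 without the C57BL/6 day 30 array).

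**Figure D4:**
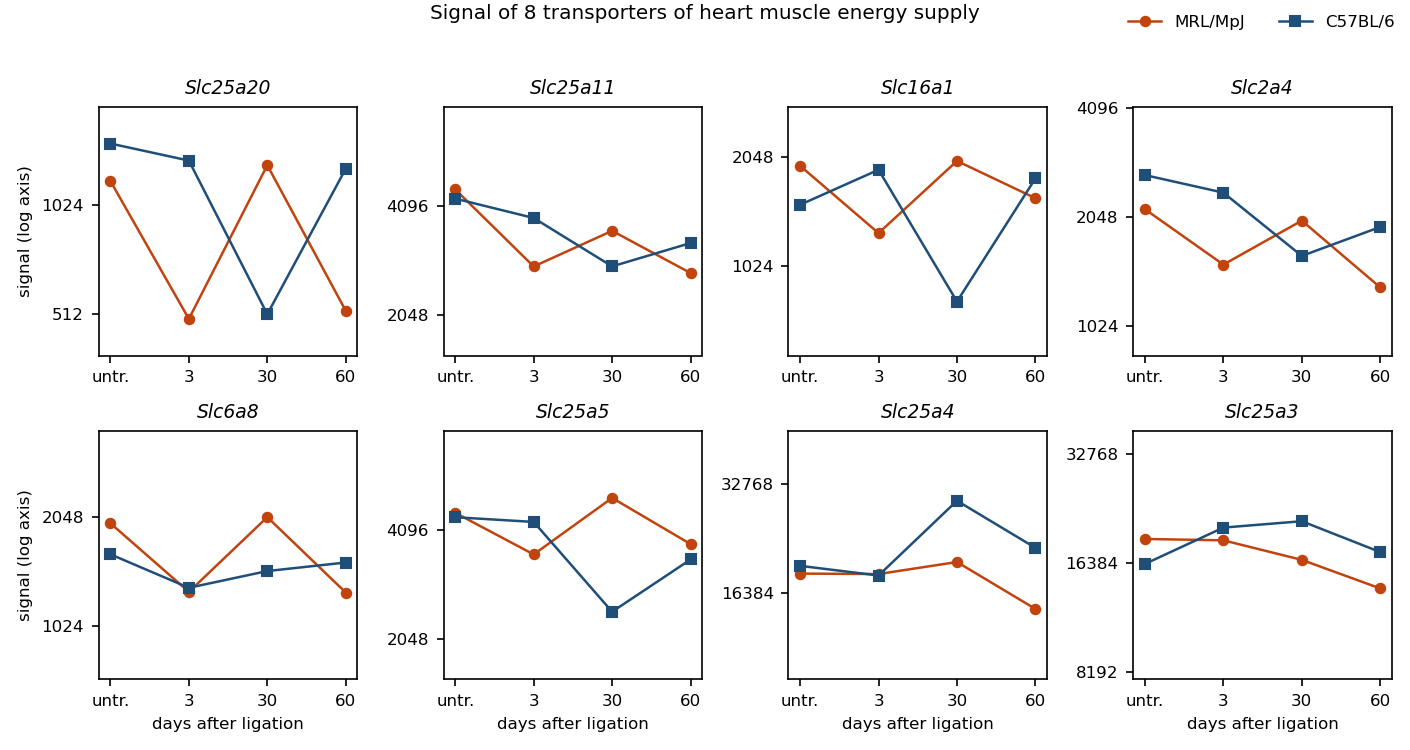
Signal on a log axis (vertical, each panel with its own range) in untreated ventricles (untr.) and 3, 30 and 60 days after ligation (horizontal, evenly spaced) for 8 transporters of fuels, creatine, nucleotides and phosphate, with MRL/MpJ as orange circles and C57BL/6 as blue squares, 1 array a point. Slc25a20 is low in MRL/MpJ on days 3 and 60 (495.5 and 521.9) and in C57BL/6 on day 30 (510.8), while Slc25a11 lies below both untreated arrays at all 6 ligated points.

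Lactate, fatty acid and carnitine transporters of the plasma membrane gave no called difference either. Slc16a1 (MCT1), the lactate and pyruvate transporter of heart muscle, read 1261.9, 1995.0 and 1575.3 in ligated and 1934.1 in untreated MRL/MpJ ventricles, and 1886.3, 817.5 and 1785.4 in ligated and 1510.7 in untreated C57BL/6 ventricles (log2 -0.19, SE 0.34, limma adjusted p = 0.874). Its value on the C57BL/6 day 30 array was the lowest of the 8, and without that array the difference was 0.04. Slc27a1, a fatty acid transport protein, read 390.1, 420.2 and 279.9 in ligated and 513.8 in untreated MRL/MpJ ventricles, and 428.6, 288.3 and 314.6 in ligated and 454.3 in untreated C57BL/6 ventricles (log2 -0.44, SE 0.21, limma adjusted p = 0.528; day 60 -0.65, SE 0.26, limma adjusted p = 0.451). All 6 ligated values of Slc27a1 lay below both untreated ones. Slc22a5, the sodium-dependent carnitine transporter, ranged from 275.1 to 500.9 in ligated MRL/MpJ, against 455.0 untreated, and from 418.7 to 536.8 in ligated C57BL/6, against 462.8 untreated (log2 -0.14, SE 0.21, limma adjusted p = 0.85). Slc47a1, a proton-coupled exporter of organic cations, read 607.1, 596.5 and 555.5 in ligated and 921.5 in untreated MRL/MpJ ventricles, and 746.3, 463.9 and 715.7 in ligated and 842.5 in untreated C57BL/6 ventricles (log2 -0.52, SE 0.22, limma adjusted p = 0.469).

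Nucleotide sugar transporters feed the glycosylation of proteins and proteoglycans in the endoplasmic reticulum and Golgi. Slc35d1, which carries UDP-glucuronic acid and UDP-N-acetylgalactosamine for chondroitin sulfate, read 21.5, 43.1 and 132.3 in ligated and 18.1 in untreated MRL/MpJ ventricles, and 86.5, 137.6 and 116.2 in ligated and 9.9 in untreated C57BL/6 ventricles. Both untreated signals were below the offset, and the gene passed the limit of 121 only through 2 ligated arrays. The ligation difference was 1.35 (SE 0.35, limma adjusted p = 0.224), with 1.36 on day 30 (SE 0.43, limma adjusted p = 0.342) and 1.85 on day 60 (SE 0.43, limma adjusted p = 0.181). Without the untreated C57BL/6 array the ligation difference was 0.83 and the day 30 difference 0.85. The fibroblast marker sums given above were also higher after ligation, but did not follow Slc35d1 from array to array. The highest sum, 60071.7 in MRL/MpJ on day 3, stood beside the lowest ligated Slc35d1 signal, 21.5. The part of fibroblasts in the Slc35d1 values was not tested.

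Slc35a2, the UDP-galactose transporter of the Golgi, read 279.2, 214.2 and 189.4 in ligated and 149.7 in untreated MRL/MpJ ventricles, and 151.7, 96.3 and 191.8 in ligated and 90.0 in untreated C57BL/6 ventricles (log2 0.52, SE 0.24, limma adjusted p = 0.505). It was also higher in MRL/MpJ at 3 of 4 time points (log2 0.58, SE 0.20, limma adjusted p = 0.512). A second probe set of Slc35a2 that reached the limit gave 0.13 for ligation and 0.32 for strain. Slc35e1 read 321.6, 512.7 and 381.9 in ligated and 545.4 in untreated MRL/MpJ ventricles, and 471.6, 244.4 and 241.9 in ligated and 642.6 in untreated C57BL/6 ventricles (log2 -0.72, SE 0.31, limma adjusted p = 0.478). Its other probe set gave -0.04, and without the untreated C57BL/6 array the brighter one gave -0.43.

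Among the remaining transporters, Slc51a, a subunit of the organic solute transporter that exports bile acids and steroids, had the smallest p of the higher members after ligation. It read 121.6, 73.7 and 74.7 in ligated and 30.1 in untreated MRL/MpJ ventricles, and 79.8, 137.4 and 75.7 in ligated and 31.7 in untreated C57BL/6 ventricles. All 6 ligated values exceeded both untreated ones (log2 1.01, SE 0.25, limma adjusted p = 0.19), with 1.10 on day 3 (SE 0.31, limma adjusted p = 0.511) and 1.13 on day 30 (SE 0.31, limma adjusted p = 0.275; 0.71 without the C57BL/6 day 30 array). Like Slc35d1 and Slc6a13, Slc51a reached the limit of 121 in ligated arrays alone, so that a difference in this direction was built into its choice. Slc23a1, a sodium-ascorbate cotransporter, was lower on days 30 and 60 than on day 3, with 17.1 and 66.4 beside 169.8 in MRL/MpJ and 41.4 and 60.1 beside 114.5 in C57BL/6 (log2 -1.23, SE 0.28, limma adjusted p = 0.666). Against untreated ventricles, with 79.3 in MRL/MpJ and 138.1 in C57BL/6, its day 30 difference was -1.25 (SE 0.33, limma adjusted p = 0.269). Slc23a1 reached the limit only in the MRL/MpJ day 3 and the untreated C57BL/6 array, so that lower values on days 30 and 60 were built into its choice, and the difference from day 3 was -0.80 without the MRL/MpJ day 3 array.

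The strain difference had 13 members with an unadjusted p under 0.05 (8.33%), beside 7.96% of all genes. Slc12a2, the sodium-potassium-chloride cotransporter NKCC1, which loads cells with chloride, was closest to a call. It read 820.3 untreated and 590.9, 654.6 and 743.2 after ligation in MRL/MpJ ventricles, against 314.3 untreated and 282.7, 296.7 and 342.2 after ligation in C57BL/6 ventricles. Every MRL/MpJ value exceeded every C57BL/6 value, by a log2 of 1.11 (SE 0.16, limma adjusted p = 0.0606), and its other probe sets gave 1.09 and 0.82. The adjusted p was 0.0171 with a larger offset, 0.0348 with a filter on mean signal and 0.0102 with an intensity trend. Of 16 alternative settings, these 3 alone brought it under 0.05. Slc35f5, of the nucleotide sugar transporter family, was on the other side, with 344.6 untreated and 296.7, 238.5 and 239.9 after ligation in MRL/MpJ, against 630.1 untreated and 508.2, 572.0 and 556.7 after ligation in C57BL/6. Its groups did not overlap (log2 -0.96, SE 0.17, limma adjusted p = 0.11), and the adjusted p was 0.0497 with the larger offset and 0.0341 with the trend. Only these 2 of the 16 settings brought Slc35f5 under 0.05.

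In all, 2 members lay higher in every MRL/MpJ array than in any C57BL/6 array (1.28%, all genes 1.82%), Slc12a2 and Slc37a4, and 5 lay lower (3.21%, all genes 2.37%), Slc25a26, Slc25a33, Slc25a38, Slc35f5 and Slc5a6. Slc37a4, the glucose-6-phosphate transporter of the endoplasmic reticulum, ranged from 309.1 to 420.8 in MRL/MpJ and from 208.0 to 304.7 in C57BL/6 (log2 0.39, SE 0.20, limma adjusted p = 0.679; 0.22 without the untreated C57BL/6 array). Slc25a33, a pyrimidine nucleotide carrier, ranged from 164.1 to 227.5 in MRL/MpJ and from 258.4 to 330.3 in C57BL/6 (log2 -0.63, SE 0.17, limma adjusted p = 0.321). Slc25a38, a glycine carrier needed for haem synthesis, ranged from 255.6 to 347.0 in MRL/MpJ and from 363.4 to 615.3 in C57BL/6 (log2 -0.54, SE 0.17, limma adjusted p = 0.419). Slc25a26, the S-adenosylmethionine carrier, ranged from 89.4 to 131.4 in MRL/MpJ and from 145.8 to 241.2 in C57BL/6 (log2 -0.63, SE 0.21, limma adjusted p = 0.468), while another of its probe sets gave 0.56. Slc5a6, the biotin and pantothenate transporter, ranged from 88.3 to 115.7 in MRL/MpJ and from 130.5 to 205.5 in C57BL/6 (log2 -0.43, SE 0.18, limma adjusted p = 0.606), and it passed the limit of 121 through C57BL/6 arrays alone.

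By class, mitochondrial carriers had a median strain difference of -0.14 with 21 of 28 below 0, sugar transporters -0.12, ion transporters -0.12 and amino acid transporters -0.04, against -0.02 for all genes tested. Of the 156 members, 61 (39.1%) lay above 0, beside 46.7% of all genes.

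**Figure D5:**
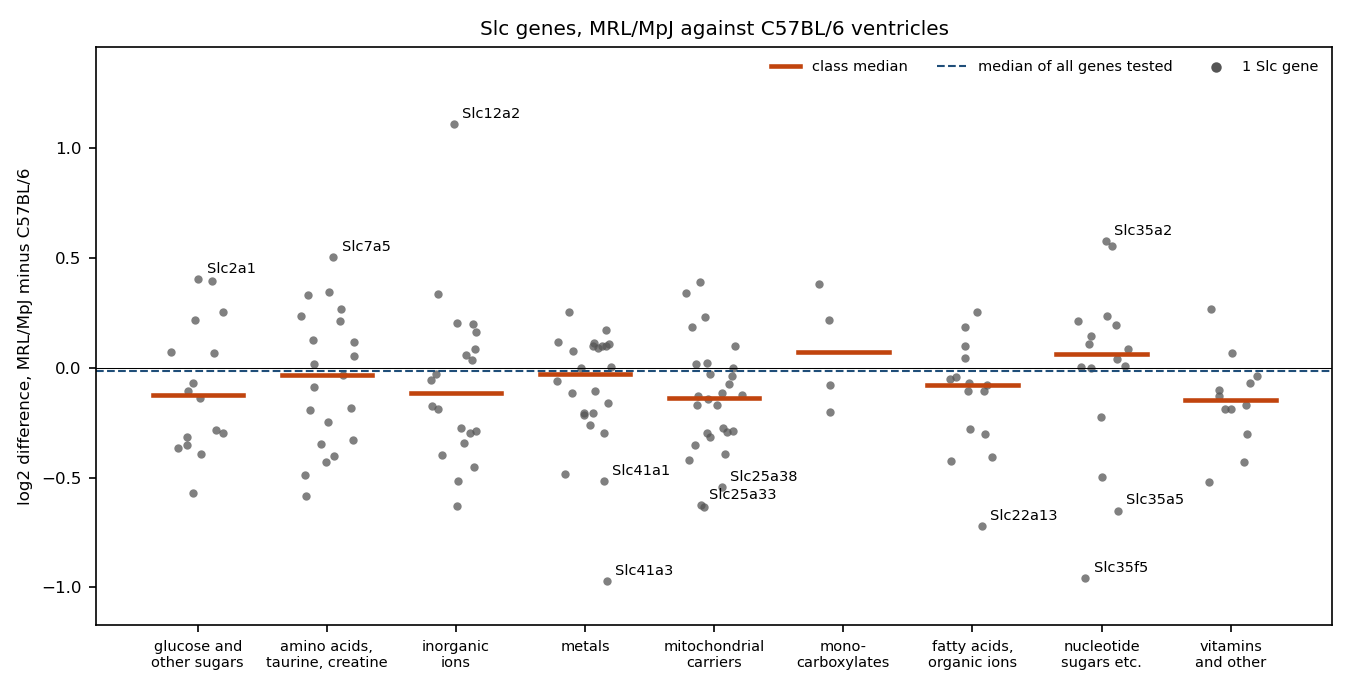
Log2 difference of MRL/MpJ minus C57BL/6 ventricles (vertical axis, additive fit over 8 arrays) for each of the 156 Slc genes (points) in 9 substrate classes (horizontal axis). Short orange lines are class medians, the dashed line is the median of all genes tested at -0.02, and Slc12a2 at 1.11 and Slc41a3 at -0.97 are the ends of the range.

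The test of whether the strains differed more or less after ligation than before called no member. There were 6 members with an unadjusted p under 0.05 (3.85%), beside 2.04% of all genes. Slc30a1, the zinc exporter of the plasma membrane, read 42.5, 133.3 and 158.6 in ligated and 44.1 in untreated MRL/MpJ ventricles, and 27.9, 98.0 and 161.5 in ligated and 179.7 in untreated C57BL/6 ventricles, so that the mean ligated difference was 0.83 in MRL/MpJ and -0.91 in C57BL/6 (interaction 1.74, SE 0.44, limma adjusted p = 1.0). Both day 3 values of Slc30a1 were the lowest of their strain, and days 30 and 60 stood above day 3 by 1.37 (SE 0.39, limma adjusted p = 0.767). Slc1a5 followed with an interaction of 1.70 (SE 0.46, limma adjusted p = 1.0), from the values given above. Slc15a2, a proton-coupled peptide transporter, read 38.1, 55.6 and 62.7 in ligated and 110.5 in untreated MRL/MpJ ventricles, and 130.7, 128.6 and 129.5 in ligated and 62.1 in untreated C57BL/6 ventricles (interaction -1.60, SE 0.45, limma adjusted p = 1.0), and it passed the limit of 121 only through the ligated C57BL/6 arrays. The other, dimmer probe set of Slc15a2 gave an interaction of -0.01, with ligated values above the untreated one in both strains. Slc20a2, a sodium-phosphate cotransporter, read 914.0, 703.2 and 650.2 in ligated and 1390.9 in untreated MRL/MpJ ventricles, and 1268.0, 582.7 and 685.6 in ligated and 643.3 in untreated C57BL/6 ventricles (interaction -1.17, SE 0.48, limma adjusted p = 1.0), while its other probe set gave -0.04. Each of these rests on 1 untreated array a strain.

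Slc17a9, the vesicular nucleotide transporter that loads ATP into secretory vesicles, had the largest interaction of the members, but with wide scatter. It read 200.6, 17.2 and 54.2 in ligated and 139.1 in untreated MRL/MpJ ventricles, and 169.4, 203.5 and 72.5 in ligated and 44.0 in untreated C57BL/6 ventricles (interaction -2.01, SE 0.95, limma adjusted p = 1.0), and the value was -1.25 without the C57BL/6 day 30 array. Slc7a1, the cationic amino acid transporter that brings arginine into cells, read 100.2, 112.2 and 86.8 in ligated and 120.9 in untreated MRL/MpJ ventricles, and 158.5, 262.6 and 166.4 in ligated and 85.9 in untreated C57BL/6 ventricles (interaction -1.17, SE 0.45, limma adjusted p = 1.0). All 3 ligated values of Slc7a1 were below the untreated one in MRL/MpJ and above it in C57BL/6. Slc7a1 passed the limit of 121 only through these ligated C57BL/6 arrays, so that a difference in this direction was built into its choice.

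Of 41 other genes of solute transport and energy supply listed beside the rule, 31 were on the array and kept. None was called in any of the 7 comparisons, and 14 of 31 lay above 0 for ligated against untreated ventricles, with a median of -0.05. There were 5 with an unadjusted p under 0.05 there, beside 10.4% of all genes. Ldhb, the lactate dehydrogenase subunit typical of heart, read 5250.4 to 9541.3 in ligated and 9697.0 to 12862.5 in untreated ventricles (log2 -0.74, SE 0.23, limma adjusted p = 0.306). Vdac3, a pore of the outer mitochondrial membrane, read 1913.4 to 2791.4 in ligated and 3369.4 to 3816.1 in untreated ventricles (log2 -0.63, SE 0.23, limma adjusted p = 0.406). Atp7a, a copper-transporting ATPase, read 56.6 to 172.2 in ligated and 41.7 to 60.5 in untreated ventricles (log2 0.80, SE 0.24, limma adjusted p = 0.291). Emb, a chaperone of monocarboxylate transporters, read 125.9 to 189.7 in ligated and 103.8 to 106.9 in untreated ventricles (log2 0.50, SE 0.21, limma adjusted p = 0.458). Atp7a and Emb reached the limit in ligated arrays alone, so that a difference in this direction was built into their choice. Slco3a1, an organic anion transporter, read 250.2 to 464.6 in ligated and 478.3 to 501.9 in untreated ventricles (log2 -0.51, SE 0.21, limma adjusted p = 0.463). Bsg, the chaperone of the lactate transporters, lay at 6044.1 to 9415.8 in ligated and 7222.1 to 9334.3 in untreated ventricles. Cd36, the fatty acid translocase, lay at 4528.0 to 6655.9 in ligated and 4848.3 to 6256.4 in untreated ventricles.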

How the data were processed

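Linear signal intensity, 1 Affymetrix array a group, was deposited by the authors, who made it with MAS5 per the submitters' processing notes; genome build and array lot are not given in the sources used here. Probe sets were named through the platform annotation (20380 of 22626 with 1 gene symbol, 691 with several, 1555 with none). The brightest probe set stood for a gene, and no further normalization was applied. Before log2, 28.6 was added, the value below which 20% of signals lay, and genes at or above 121 in at least 2 arrays were tested with limma 3.58.1 in R 4.3.3 (additive fit, 3 residual degrees of freedom; interaction fit, 2). Groups had no replicates, so the error comes from the strain-by-time differences. The number of arrays limits the precision. The procedure was tested on simulated data.

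The members, substrate classes, marker lists and partner list were chosen with earlier results of these data known. Genes are named if they had one of the 10 smallest p-values in a comparison, one of the 4 largest differences of their class, or stood on a list of transporters well known in heart, together with genes whose groups did not overlap; of that list, Slc25a12 had no probe set naming it alone and Slc15a3 did not pass the limit. Alternatives were other offsets, filters, normalization, probe sets and limma priors, and leaving out each array. Detection calls were not used here. Promoter windows came from RefSeq.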

Additional observations from a re-analysis of the deposited data

How the results depend on the processing

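Of 16 alternative settings, 13 left no member called in any comparison tested. For the strain difference 2 members were called with the larger offset, 1 with the filter on mean signal and 2 with an intensity trend, and for day 60 there was 1 with the trend: Slc12a2, Slc35f5 and Slc25a42, with the adjusted p-values given beside them. Counts over all genes moved more: for ligated against untreated ventricles 16 genes were called, 104 with the trend, 76 with the larger offset, 43 with the filter on mean signal, 1 without a filter, 1 after quantile normalization and 0 to 68 without single arrays; for the strain difference 18, and 7 to 43 over all settings; for day 60 3, and 0 to 75; for day 30 1, and 0 to 186; for day 3 0, and 0 to 26. The median of the mitochondrial carriers for ligation was -0.18 with all probe sets averaged and -0.17 to -0.051 without single arrays. The member differences printed kept their direction in all settings except for Slc8a1 (-0.17 with all probe sets averaged, and -0.18 to 0.53 without single arrays, below 0 without MRL/MpJ day 30 or C57BL/6 day 3), Slc16a1 (-0.43 to 0.038, above 0 without C57BL/6 day 30), Slc22a5 (-0.33 to 0.048, above 0 without untreated MRL/MpJ), Slc25a3 (-0.10 after quantile normalization, and -0.22 to 0.28 without single arrays, below 0 without C57BL/6 untreated, day 30 or day 60) and Slc25a4 (-0.062 after quantile normalization, -0.19 with all probe sets averaged, and -0.074 to 0.22 without single arrays, below 0 without untreated C57BL/6). The cause of these moves was not tested. The interaction could not be fitted without either untreated array. No paired analysis was possible because each group has 1 array, so replicate numbers pair nothing; time point already stands as a block in the strain comparison, and strain in the ligation comparison. Signals near the offset of 28.6 set how far dim genes such as Slc35d1 can be read.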

Other observations

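Several dimmer transporters varied without a common direction. Slc16a3 (MCT4), the lactate exporter of glycolytic cells, read 239.2, 145.1 and 164.3 in ligated and 88.2 in untreated MRL/MpJ ventricles, and 48.5, 153.2 and 122.0 in ligated and 145.2 in untreated C57BL/6 ventricles. All ligated MRL/MpJ values were above the untreated one, while C57BL/6 values lay on both sides. Slc16a4, a monocarboxylate transporter relative, read 147.7 on day 3 and 48.7 and 67.6 on days 30 and 60 in MRL/MpJ, and 132.0, 98.6 and 58.0 in C57BL/6 (days 30 and 60 against day 3, log2 -0.82, SE 0.25, limma adjusted p = 0.864), and it passed the limit of 121 only through the 2 day 3 arrays, so that this direction was built into its choice. Slc15a4, a histidine and peptide transporter of endolysosomes, read 17.9, 125.8 and 142.5 in MRL/MpJ and 110.2, 112.0 and 132.1 in C57BL/6 on the same days (log2 0.96, SE 0.37, limma adjusted p = 0.873), and the value was 0.14 without the MRL/MpJ day 3 array. It reached the limit in day 30 and day 60 arrays alone, which built this direction into its choice.

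Slc24a3, a potassium-dependent sodium-calcium exchanger, read 243.4, 24.1 and 199.9 in ligated and 165.9 in untreated MRL/MpJ ventricles, and 229.7, 337.0 and 151.7 in ligated and 184.4 in untreated C57BL/6 ventricles, so that the day 30 arrays were the lowest and the highest of the 8. Slc22a13, an organic anion transporter, ranged from 36.8 to 102.3 in MRL/MpJ and from 94.1 to 254.1 in C57BL/6 (log2 -0.72, SE 0.24, limma adjusted p = 0.472), and passed the limit of 121 through C57BL/6 arrays alone. Slc35a5 ranged from 44.2 to 99.7 in MRL/MpJ and from 80.5 to 185.7 in C57BL/6 (log2 -0.65, SE 0.22, limma adjusted p = 0.479), and it too passed the limit through C57BL/6 arrays alone. Slc35c2 read 144.7, 168.7 and 191.0 in ligated and 84.7 in untreated MRL/MpJ ventricles, and 34.4, 56.1 and 166.6 in ligated and 147.8 in untreated C57BL/6 ventricles (interaction 1.59, SE 0.60, limma adjusted p = 1.0).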
